A study of Mus musculus with 18 samples.

Results

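The 32 genes described here act in mitosis, the division of a cell's duplicated chromosomes between its daughter cells. They are a list of symbols, drawn up with earlier results of these data known though the list itself uses no measured value, and all 32 were found once among the 55487 genes of the deposited tables. The RNA came from alphaTC1 cells, a mouse line of glucagon-producing pancreatic alpha cells that divides in culture, and makes up 18 libraries in 2 experiments. In experiment 1, alphaTC1 cells transduced with an empty vector (EV, 3 libraries) were set beside cells transduced with a short hairpin RNA against Smndc1 (shSmndc1, 3 libraries), a splicing factor, 5 days after transduction. Every culture of experiment 2 additionally carried RIP-mCherry, in which a rat insulin promoter drives a red fluorescent protein. Empty-vector cells with this reporter (EV_RIP, 4 libraries) served as control. Hairpin-carrying cells were split by sorting into a fraction without fluorescence (shSmndc1_RIP_neg, 4 libraries) and a fluorescent one (shSmndc1_RIP_pos, 4 libraries). A day is labelled for experiment 1 alone, and a sort of the EV_RIP cells is not mentioned. A single cell line and a single hairpin were used, so another line or hairpin could respond differently. The labels do not say that the replicates were separate cultures. The p-values therefore set a group difference against the spread of these libraries only, which may reflect technique.

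Mitosis is driven by the kinase CDK1 bound to cyclins, whose messenger RNAs are made mainly in the G2 phase and peak as cells divide. Aurora and Polo kinases then build the spindle and correct chromosome attachment, kinetochore and checkpoint proteins hold and survey that attachment, and the anaphase-promoting complex destroys cyclins so that the chromosomes part. Many of these genes are transcribed together: their promoters often carry CCAAT boxes bound by NF-Y and a cell cycle homology region (CHR) bound by MuvB complexes, which repress in resting cells and activate in G2 together with B-Myb and FoxM1. The transcription factor p53, through the CDK inhibitor p21 (made from Cdkn1a), is known to shift those complexes toward repression.

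Total counts per library ran from 8084574 (shSmndc1_RIP_neg replicate 3) to 103048766 (EV_RIP replicate 2). Smndc1 itself was at 41.9, 40.2 and 35.1 CPM (counts scaled to TMM-corrected library sizes) in EV and at 10.4, 9.52 and 10.5 CPM in shSmndc1, or 26.0% of EV (edgeR quasi-likelihood test, log2 fold change -1.94 ± 0.13 SE, adjusted p = 0.00145). It was at 37.6, 54.9, 39.3 and 46.3 CPM in EV_RIP and at 16.6, 22.4, 16.0 and 25.2 CPM in shSmndc1_RIP_pos, or 45.04% of EV_RIP (log2 fold change -1.15 ± 0.20, edgeR adjusted p = 0.00384). In the libraries labelled shSmndc1_RIP_neg it was at 23.9, 43.4, 36.3 and 44.6 CPM, 83.2% of EV_RIP, and did not pass the test (log2 fold change -0.27 ± 0.20, edgeR adjusted p = 0.378). The measured Smndc1 level thus does not check the label of that group, and its libraries are called "labelled negative" in what follows. The 8 alpha cell markers summed to 5456 CPM or more in every library, with Gc at 0 in all 18, while delta and PP cell markers summed to at most 0.357 CPM and endothelial markers to at most 6.91 CPM, both highest in a labelled negative library.

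All 32 mitosis genes passed the filter on low counts in both experiments. On the deposited FPKM scale, which is per length and so allows genes to be compared, the EV means ran from 12.9 for Kif23 through a median of 52.999 to 352 ± 45.2 (SD, n = 3) for Top2a. Next in the EV order were the cyclin gene Ccna2 at 109.7 ± 11.98 FPKM and the spindle assembly factor Tpx2 at 101 ± 15.3 FPKM, which lie within each other's spread. Ttk (16.0 FPKM) and Kif23 were at the low end of that order. In EV_RIP the same 3 genes led, with Top2a at 339.8, Ccna2 at 117 and Tpx2 at 116 FPKM, and Kif23 was again lowest at 14.4 FPKM. The median over the 32 genes was 59.1 FPKM in EV_RIP, 59.4 in shSmndc1_RIP_pos and 44.95 in the labelled negative libraries.

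The genes lie on 14 chromosomes and have 4 to 46 exons in their longest coding transcript, with a median of 15. Their promoters share sequence features that the choice of the genes did not use. RefSeq promoters of the GRCm38.p6 build, from 250 bases before to 50 after the annotated start, were matched for 27 of the 32 genes (28 promoters). Prc1 appears with both of its annotated starts, whose windows overlap, so its TTTGAA and CCAAT sites are counted in each window. The motifs searched on both strands were TTTGAA, a form of the CHR, TTTAAA, a variant of it, and the CCAAT box. The first was present in 75.0% of the 28 promoters and in 17.9% of the 32851 promoters of the same length in the table. The variant TTTAAA was found in 32.1% against 13.2%, and CCAAT in 78.6% against 37.4%. A CCAAT box together with a CHR of either form stood in 75.0% of the mitosis gene promoters, 10.7% of all promoters and 22.2% of 27 promoters of genes for the G1/S transition and DNA replication. The G1/S promoters held CCAAT in 66.7% and TTTGAA in 14.8%. A TTTGAA and a CCAAT match overlapped in the promoter of Cdca8, and a forward and a reverse CCAAT match overlapped in that of Ube2c. The 53 CCAAT matches lay at a median of 78 bases before the start (position -78), with 37 of them in the 120 bases before it. A match is a run of letters and was not tested as a binding site.

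The following 4 promoter stretches show 3 genes with this arrangement and 1 without, all on the minus strand of GRCm38.p6 and written 5′ to 3′, with capitals marking TTTGAA and CCAAT on either strand (TTCAAA and ATTGG are the other strand). Ccnb2 (chr9:70421555-70421774) and Cdk1 (chr10:69352939-69353132) are shown because they had the largest falls of the 32 genes. Top2a (chr11:99024190-99024409), the most abundant gene, and Nuf2 (chr1:169531465-169531684), which has none of the motifs although it fell as well, were chosen after their values were seen.
Ccnb2: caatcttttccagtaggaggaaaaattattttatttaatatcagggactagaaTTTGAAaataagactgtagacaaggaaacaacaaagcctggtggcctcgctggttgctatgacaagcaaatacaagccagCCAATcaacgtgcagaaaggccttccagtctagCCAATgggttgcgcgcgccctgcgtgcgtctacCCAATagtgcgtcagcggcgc
Cdk1: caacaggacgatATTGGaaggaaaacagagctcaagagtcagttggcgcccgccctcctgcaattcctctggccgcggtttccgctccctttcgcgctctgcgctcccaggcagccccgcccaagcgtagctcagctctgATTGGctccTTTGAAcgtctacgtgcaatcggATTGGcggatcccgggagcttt
Top2a: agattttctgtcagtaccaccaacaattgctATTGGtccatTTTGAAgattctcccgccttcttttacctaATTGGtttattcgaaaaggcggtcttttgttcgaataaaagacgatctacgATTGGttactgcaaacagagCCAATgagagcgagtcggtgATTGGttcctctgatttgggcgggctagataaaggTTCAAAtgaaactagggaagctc
Nuf2: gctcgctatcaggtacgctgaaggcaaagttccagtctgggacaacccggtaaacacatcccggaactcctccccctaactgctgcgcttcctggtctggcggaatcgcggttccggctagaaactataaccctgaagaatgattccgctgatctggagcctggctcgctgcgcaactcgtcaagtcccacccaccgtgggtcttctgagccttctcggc
In these stretches Ccnb2 has 3 CCAAT boxes, with first bases at positions -87, -54 and -21, and a TTTGAA at -167. Cdk1 has 3 CCAAT boxes in reverse (at -208, -80 and -48) around a TTTGAA at -71. Top2a has 5 CCAAT boxes and a TTTGAA on each strand. The searched windows reach beyond these stretches and hold a further TTTGAA in Ccnb2 (position 5, after the start) and in Cdk1 (-15). That of Top2a holds a further CCAAT box at -227.

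**Figure D1:**
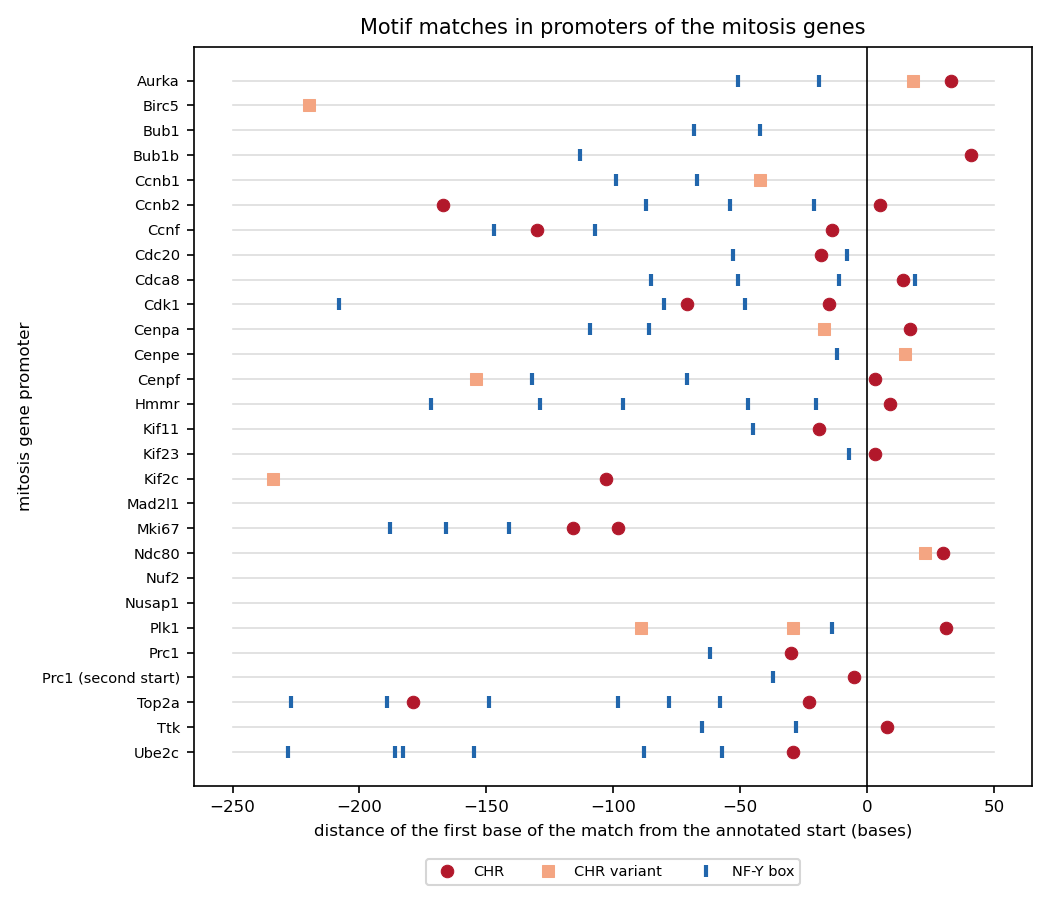
Matches of the CHR (TTTGAA, circles), its variant (TTTAAA, squares) and CCAAT (bars, named NF-Y box in the key) in the 28 RefSeq promoters of 27 mitosis genes, by distance in bases from the annotated start (0). CCAAT matches cluster before the start, with 37 of 53 in the 120 bases before it, and the rows of Mad2l1, Nuf2 and Nusap1 hold no match.

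The widest change was in the labelled negative libraries: 15 of the 32 mitosis genes fell against EV_RIP and none rose (edgeR quasi-likelihood test, Benjamini-Hochberg adjusted p under 0.05). Over all 18897 genes tested in this comparison 5.69% fell and 8.17% rose. All 5 genes of CDK1 and the cyclins were among the 15. With them fell 3 of 7 Aurora, Polo and chromosomal passenger genes and 3 of 9 checkpoint and kinetochore genes. Also lower were 1 of 2 genes of the anaphase-promoting complex arm and 3 of 7 spindle motor and microtubule-binding genes, but neither of the 2 chromosome proteins. The median log2 fold change of the 32 genes was -0.37 (middle 50% from -0.51 to -0.18), with 28 below 0, against a median of -0.009 over all genes, of which 50.8% were below 0. In 14 of the 32 every labelled negative library lay under every EV_RIP library, which held for 7.2% of all genes. In bulk RNA, fewer cells in G2 and mitosis and less of these RNAs per cell cannot be told apart. The count of 15 rests on single libraries: it became 0 without labelled negative replicate 2, 0 without replicate 4, 5 without replicate 3, 1 without EV_RIP replicate 1 and 9 without EV_RIP replicate 3, and it was 9 when shSmndc1_RIP_pos was left out of the fit. In the fits without labelled negative replicate 2 or 4 the median of the 32 genes was -0.36 and -0.35, while the number of all genes called lower went from 1076 to 88 and 32. EV_RIP replicate 1 had a mitochondrial share of counts of 0.587%, against 2.34%, 3.87% and 3.98% in EV_RIP replicates 2, 3 and 4. That share was 2.99% to 3.94% in the labelled negative libraries. Its part in the count of 15 was not tested.

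**Figure D2:**
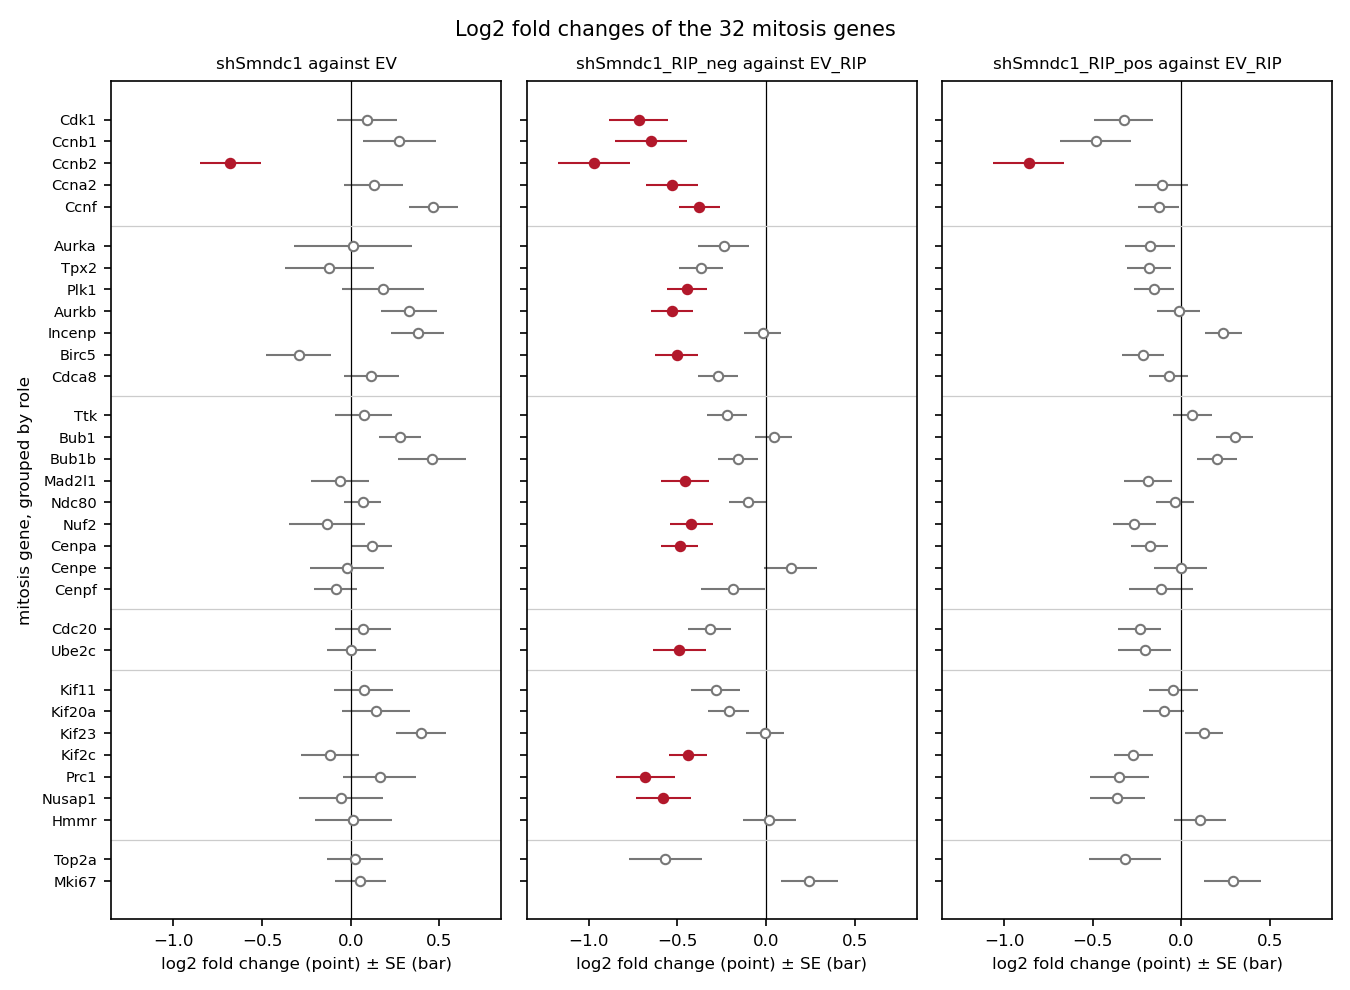
Log2 fold change (points) ± SE (bars) of the 32 mitosis genes, grouped by role, for shSmndc1 against EV, labelled negative against EV_RIP and shSmndc1_RIP_pos against EV_RIP. Filled red points passed the edgeR threshold (1, 15 and 1 genes), and Ccnb2 is the filled point of the first and last panels.

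All 5 genes of CDK1 and the cyclins fell, with a median log2 fold change of -0.65, the lowest among the 6 roles. Ccnb2, which encodes cyclin B2, a CDK1 partner found largely at the Golgi (gene on chr9:70407692-70421547, minus strand, 9 exons), was at 59.3, 46.8, 53.1 and 58.0 CPM in EV_RIP and at 42.2, 20.6, 26.1 and 21.8 CPM in the labelled negative libraries. All 4 labelled negative libraries were under the lowest EV_RIP library, and replicate 1 was the nearest to it. The mean was 51.02% of EV_RIP (27.7 ± 9.995 against 54.3 ± 5.65 CPM, SD, n = 4 each; edgeR log2 fold change -0.97 ± 0.20 SE, adjusted p = 0.0139). Cdk1, the mitotic kinase itself (chr10:69335146-69352938, minus strand, 9 exons), was at 344, 308, 309.8 and 352 CPM in EV_RIP and at 286, 176, 184 and 154 CPM in the labelled negative libraries. Again the groups did not overlap and replicate 1 was the highest, and the fall was to 60.8% (edgeR log2 fold change -0.72 ± 0.17, adjusted p = 0.0178). Ccna2, for cyclin A2, which acts in S phase and at mitotic entry, was at 409, 476, 413 and 416 CPM against 400.4, 253, 288 and 245 CPM, so that replicate 1 lay just below the EV_RIP range (69.2% of EV_RIP, edgeR log2 fold change -0.53 ± 0.15, adjusted p = 0.0324). Of its exonic bases 12.5% overlap Exosc9 on the other strand. Ccnb1, for the main mitotic cyclin B1, was at 218, 176, 196 and 304 CPM in EV_RIP and at 190.1, 114, 157 and 109 CPM in the labelled negative libraries. These 2 groups overlapped, and the test was passed narrowly (63.8% of EV_RIP, edgeR log2 fold change -0.65 ± 0.20, adjusted p = 0.0462). Ccnf encodes cyclin F, which binds no CDK and serves a ubiquitin ligase. It was at 134, 122, 121 and 122 CPM against 105, 98.1, 89.4 and 92.4 CPM, with no overlap (77.1% of EV_RIP, edgeR log2 fold change -0.38 ± 0.12, adjusted p = 0.0440).

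**Figure D3:**
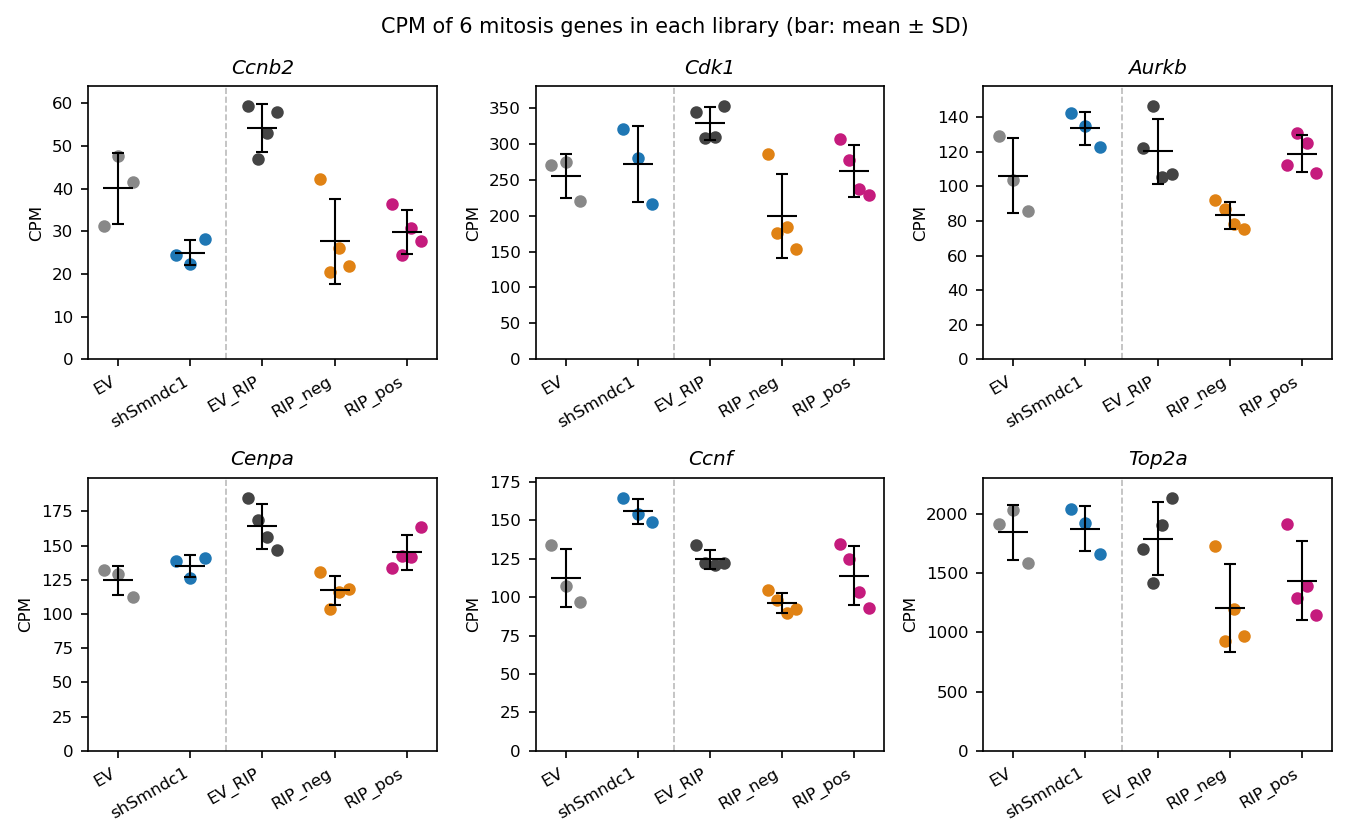
CPM (vertical axes from 0) of Ccnb2, Cdk1, Aurkb, Cenpa, Ccnf and Top2a in each of the 18 libraries, with the mean (dash) ± SD (bar) of each group and a dashed line between the experiments. Mean Ccnb2 is lower in shSmndc1, the labelled negative and the positive libraries than in the empty vector of the same experiment, and Aurkb, Cenpa and Ccnf passed the test in the labelled negative libraries.

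Among the kinases and the chromosomal passenger complex, which together order spindle assembly and chromosome attachment, Aurkb, Birc5 and Plk1 fell in the labelled negative libraries, and the median of the 7 genes was -0.37. Aurkb, the kinase of the passenger complex, was at 122, 146, 105 and 107 CPM in EV_RIP and at 91.9, 87.1, 78.5 and 75.1 CPM in the labelled negative libraries, 69.3% of EV_RIP with no overlap (edgeR log2 fold change -0.53 ± 0.12, adjusted p = 0.017). Birc5, for survivin, was at 266, 329.6, 245 and 266 CPM against 224, 193, 194 and 170.4 CPM, 70.5% with no overlap (edgeR log2 fold change -0.50 ± 0.12, adjusted p = 0.0195). Incenp, the scaffold of the complex, did not pass and was at 167 ± 13.9 CPM in EV_RIP and 165 ± 9.57 CPM in the labelled negative libraries (log2 fold change -0.02), and Cdca8, for borealin, at 138 ± 19.1 and 114 ± 4.62 CPM (log2 fold change -0.27, edgeR adjusted p = 0.106). Whether the subunits' changes differ from each other was not tested. Plk1, the Polo kinase of mitotic entry, was at 148, 151, 114 and 123 CPM against 111, 96.2, 91.5 and 94.7 CPM, 73.4% of EV_RIP (edgeR log2 fold change -0.45 ± 0.11, adjusted p = 0.0242). Its reads are shared in part with the pseudogene Plk-ps1, whose count was 1.24% to 12.6% of that of Plk1 over the libraries, and with both summed the log2 fold change was -0.36 (edgeR adjusted p = 0.0491). Tpx2, which activates Aurora A on the spindle, was at 482, 547, 473 and 539 CPM against 461, 381, 379 and 359.8 CPM. Its groups did not overlap, yet it missed the threshold (log2 fold change -0.37 ± 0.12, edgeR adjusted p = 0.0582). Aurka itself was at 218 ± 29.7 CPM in EV_RIP and 184 ± 29.5 CPM in the labelled negative libraries (log2 fold change -0.24, edgeR adjusted p = 0.257).

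Of the 9 kinetochore and checkpoint genes Cenpa, Nuf2 and Mad2l1 fell, 6 did not pass the test, and the median was -0.19. Cenpa, the histone H3 variant that marks centromeres, was at 185, 169, 156 and 147 CPM in EV_RIP and at 130.4, 104, 116 and 118 CPM in the labelled negative libraries, 71.3% of EV_RIP with no overlap (edgeR log2 fold change -0.49 ± 0.11, adjusted p = 0.0155). Nuf2, of the NDC80 complex that grips microtubules, was at 152, 158, 155 and 178 CPM against 151, 107, 116 and 106 CPM, where replicate 1 was next to the lowest EV_RIP library (edgeR log2 fold change -0.42 ± 0.12, adjusted p = 0.0353). Its partner Ndc80 was at 108 ± 11.3 CPM and 101 ± 6.599 CPM (log2 fold change -0.10). Mad2l1, a checkpoint protein that restrains the anaphase-promoting complex, was at 224, 217, 229 and 279 CPM in EV_RIP and at 226, 154, 162 and 149 CPM in the labelled negative libraries. Replicate 1 lay inside the EV_RIP range and the other 3 below it (72.9% of EV_RIP, edgeR log2 fold change -0.46 ± 0.14, adjusted p = 0.0400). The checkpoint kinase genes Bub1 (log2 fold change 0.04), Bub1b (-0.16) and Ttk (-0.22), and the large kinetochore proteins Cenpe (0.14) and Cenpf (-0.19), did not pass the test.

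Of the genes that take cells out of mitosis, Ube2c, the ubiquitin-conjugating enzyme of the anaphase-promoting complex, was at 374, 312, 254 and 248 CPM in EV_RIP and at 230.4, 172, 218 and 226 CPM in the labelled negative libraries, and fell (edgeR log2 fold change -0.49 ± 0.15, adjusted p = 0.0440). Its exons overlap Tnnc2 on the other strand over 22.8% of their bases. Cdc20, an activator of the same complex, was at 193 ± 27.4 CPM in EV_RIP and 155 ± 14.3 CPM in the labelled negative libraries, and missed the threshold (log2 fold change -0.32 ± 0.12, edgeR adjusted p = 0.0885).

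Prc1, Nusap1 and Kif2c fell among the 7 spindle motors and microtubule-binding proteins. Prc1, which bundles microtubules between the parting chromosomes, was at 319.5, 303, 279 and 335 CPM in EV_RIP and at 275, 159, 182 and 155 CPM in the labelled negative libraries, 62.4% of EV_RIP (edgeR log2 fold change -0.68 ± 0.17, adjusted p = 0.0207). It shares 11.1% of its exonic bases with Rccd1 on the other strand. Nusap1, a spindle microtubule stabilizer, was at 132, 147, 133 and 159 CPM against 126, 77.8, 91.6 and 85.7 CPM (66.9% of EV_RIP, edgeR log2 fold change -0.58 ± 0.16, adjusted p = 0.0281). Kif2c, a kinesin that depolymerizes microtubules at centromeres, was at 114, 127, 97.9 and 104 CPM against 91.6, 79.5, 75.5 and 79.3 CPM (edgeR log2 fold change -0.44 ± 0.11, adjusted p = 0.0208). In all 3 genes the groups did not overlap, with replicate 1 the highest labelled negative library. The motors Kif11 (log2 fold change -0.28), Kif20a (-0.21) and Kif23 (-0.01) and the hyaluronan receptor Hmmr (0.02), a spindle protein in dividing cells, did not pass. Kif20a shares 29.3% of its exonic bases with Cdc23 on the other strand.

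The 2 abundant chromosome proteins had fold changes of opposite sign, and neither passed the test. Top2a, the topoisomerase that untangles sister chromosomes, was at 1702, 1415, 1907 and 2138 CPM in EV_RIP and at 1729, 924, 1201 and 974 CPM in the labelled negative libraries. Replicate 1 lay within the EV_RIP range and the other 3 below it (67.4% of EV_RIP, log2 fold change -0.57 ± 0.21, edgeR adjusted p = 0.0744). Mki67, for the proliferation antigen Ki-67, was at 599.9, 998, 796 and 873 CPM against 902, 1007, 970.04 and 992 CPM (log2 fold change 0.25 ± 0.16, edgeR adjusted p = 0.307). Its 4 labelled negative values were all above the EV_RIP mean of 816 ± 167 CPM, while the 5 genes of CDK1 and the cyclins fell in the same libraries.

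Labelled negative replicate 1 stood apart from the other 3. Its median log2 ratio to the EV_RIP mean over the 32 genes was -0.12, against -0.44, -0.46 and -0.43 in replicates 2, 3 and 4, and it was the highest of the 4 in 25 genes. The CPM of the 32 genes summed to 8037 in that library and to 6246, 6625 and 6271 in the others, with 8135 to 9236 in EV_RIP. The same library stood apart in genes of the p53 arm. Cdkn1a was at 277 CPM in it and at 694, 528 and 779 CPM in replicates 2, 3 and 4, against 215 to 264 CPM in EV_RIP. Mdm2, a p53 target that limits p53, was at 164 CPM in replicate 1 and at 526, 424 and 616 CPM in the others, against 88.3 to 157 CPM in EV_RIP. Smndc1 separated the same library: it was at 23.9 CPM in replicate 1, where the mitosis genes were nearest to EV_RIP, and at 43.4, 36.3 and 44.6 CPM in replicates 2 to 4, against 37.6 to 54.9 CPM in EV_RIP. Labelled negative replicate 3 had the fewest counts, and Rn7sk, a noncoding RNA without a poly(A) tail, was at 4.53, 18.6, 161 and 45.4 CPM in replicates 1 to 4 against 5.24 to 14.2 CPM in EV_RIP. Summed RNAs of the clustered histone genes, most of which are made without a poly(A) tail, were at 2.49, 4.77, 10.097 and 10.085 CPM in replicates 1 to 4, against 2.22 to 5.11 CPM in EV_RIP. Malat1, a nuclear noncoding RNA, was at 449.9 to 688 CPM in the labelled negative libraries and 287 to 669.6 CPM in shSmndc1_RIP_pos, against 109 to 286 CPM in EV_RIP. The part of Smndc1, Cdkn1a and Mdm2 levels, of depth and of these RNAs in the fall of the mitosis genes was not tested. Without replicate 1 the count of genes that fell was 18, and these held all 15 of the full comparison.

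**Figure D4:**
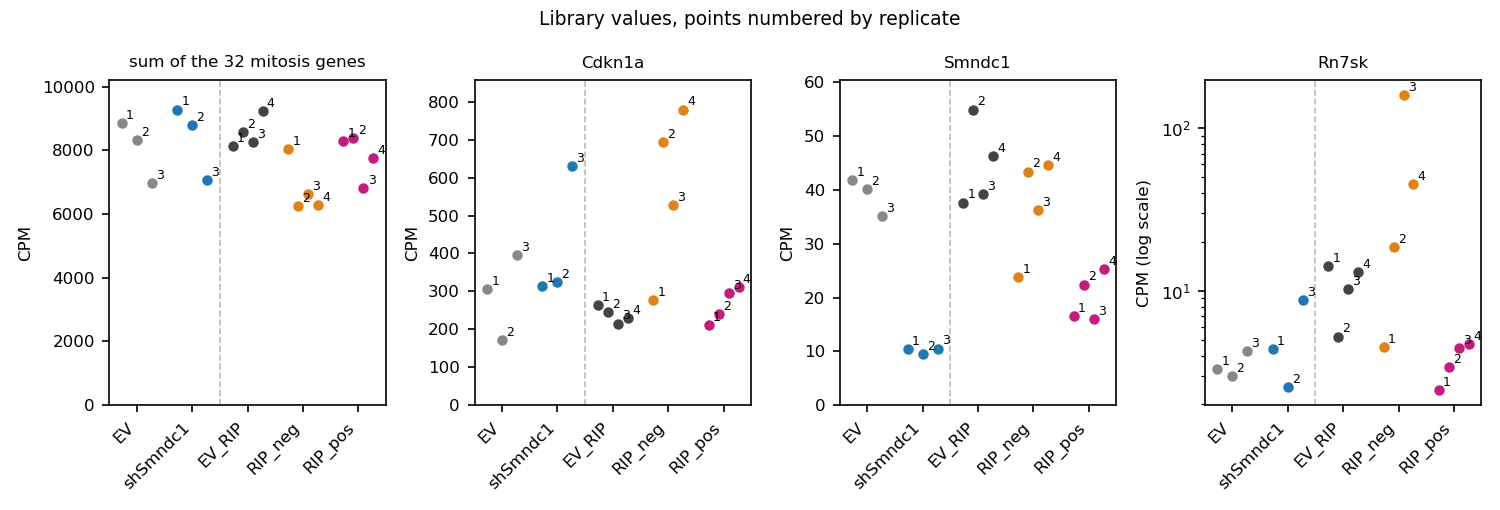
CPM of the summed 32 mitosis genes, Cdkn1a, Smndc1 and Rn7sk (the last on a log axis) in each library, with points numbered by replicate. Among the labelled negative libraries, replicate 1 has the highest sum (8037) and the lowest Cdkn1a (277), and replicate 3 the highest Rn7sk (161).

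Other genes of the mitotic machinery in the labelled negative libraries were read from fixed lists, where 5.69% of all genes fell and 8.17% rose. Of 14 other regulators of mitotic entry 2 fell and 1 rose: Cdc25b, a phosphatase that activates CDK1, fell (log2 fold change -0.71, edgeR adjusted p = 0.0151) with Ensa (-0.43), an inhibitor of the phosphatase PP2A, while Gtse1, a G2-phase regulator of p53, rose (1.18, adjusted p = 0.0105). Of 27 other kinetochore and checkpoint genes 4 fell and none rose. The largest of these falls was that of Spc25, a subunit of the NDC80 complex with Nuf2, from 164, 178, 167 and 224 CPM to 124, 73.0, 95.9 and 72.9 CPM (log2 fold change -1.003, edgeR adjusted p = 0.00801). Of 26 other spindle and cytokinesis genes 6 fell and 1 rose, among them Depdc1b (-1.04) and Fam83d (-0.52) downward and Psrc1 (0.85) upward. Condensin, cohesin and separase genes gave 3 falls of 19, including Pttg1, for the separase inhibitor securin (-0.80), and 4 of 17 anaphase-promoting complex genes fell, led by its activator Fzr1 (-0.49) and the subunit Anapc15 (-0.41). Of 16 genes of mitotic transcription E2f7 (0.77), a repressor of cell cycle genes, and Nfyb (0.48) rose and Rbbp4 (-0.49), a MuvB subunit, fell. In the G1/S and replication list 2 genes fell and 3 rose of 29 tested, shares near those of all genes, with a median of -0.09. Of 15 CDK inhibitor and p53 arm genes tested 6 rose and 3 fell. Log2 fold changes of the 15 ran from -0.62 to 1.86, with 6 below 0. The first 4 by p all rose: Mdm2 (log2 fold change 1.86 ± 0.32), Btg2 (0.72 ± 0.13), Cdkn1a (1.26 ± 0.24) and Ccng1 (1.26 ± 0.27).

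In the reporter-positive cells, where Smndc1 was lower, 1 of the 32 genes fell and none rose, with 8.92% of all genes lower and 8.47% higher. The gene was Ccnb2, at 36.5, 24.5, 30.8 and 27.7 CPM against the EV_RIP values given above, or 55.1% of EV_RIP (29.9 ± 5.08 CPM; edgeR log2 fold change -0.86 ± 0.20, adjusted p = 0.0129). The comparison shares the EV_RIP libraries with the previous one, so the similar size of the change in Ccnb2 (-0.97 and -0.86) is not an independent repeat. Cdk1 was at 307, 277, 237 and 228 CPM, under every EV_RIP library, but did not pass (log2 fold change -0.33 ± 0.16, edgeR adjusted p = 0.178). With Ccnb2 and Cdk1, Nuf2 (134 ± 12.2 CPM) and Nusap1 (111 ± 18.7 CPM) made up the 4 genes whose positive libraries were all below EV_RIP, against 11.7% of all genes. The 4 of 32 are near that share. The median of the 32 genes was -0.14, with 25 below 0, where 49.9% of all genes were below 0. Bub1, the checkpoint kinase, was at 127, 118, 95.0 and 109.5 CPM against 84.6, 91.5, 93.8 and 96.0 CPM, and missed the threshold upward (log2 fold change 0.30 ± 0.10, edgeR adjusted p = 0.0552). Without labelled negative replicate 1 in the shared fit 4 genes fell, adding Cdk1, Prc1 and Nusap1 to Ccnb2, and 1 rose. In the same cells Spc25 (-0.88) was among 4 of 27 other kinetochore genes that fell, with 1 that rose. Depdc1b (-1.004) was among 2 of 26 other spindle and cytokinesis genes that fell, with 4 that rose. Pttg1 (-0.58) was among 2 of 19 condensin, cohesin and separase genes that fell, with 2 that rose. Of 17 anaphase-promoting complex genes 4 fell and none rose. Of 29 G1/S genes 2 fell and 6 rose, among the latter Slbp (0.54), Mcm4 (0.51) and Ccnd3 (0.65). The separase gene Espl1 (0.48), the cohesin protector Cdca5 (0.47) and E2f7 (0.74) rose. None of the 15 p53 arm genes passed the test here with edgeR, and 4 were at an unadjusted p under 0.05.

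The sorted fractions share replicate numbers, and their deviations from the group means went together within a number, so they were also compared as pairs. Without the pairs none of the 32 genes differed between shSmndc1_RIP_pos and the labelled negative libraries with edgeR, as for all genes (0% lower and 0% higher), although 31 of 32 log2 fold changes were above 0 (median 0.23), 11 genes were at an unadjusted p under 0.05 and DESeq2 called 1, Aurkb. Of all genes 51.5% were below 0. In Aurkb and Cenpa every positive library lay above every labelled negative one, which held for 3.33% of all genes, and in none of the 32 below (3.25%). Without labelled negative replicate 1 edgeR called 6 of the 32 genes higher in the positive cells. With the replicate number as a block and all 12 libraries of experiment 2, edgeR called Aurkb. In a paired fit of the 8 sorted libraries alone, chosen after the data were seen, 5 of the 32 genes were higher in the positive cells and none lower, against 3.71% higher and 4.72% lower of 17994 genes. Aurkb was higher by 0.52 ± 0.09 (log2 ± SE, edgeR adjusted p = 0.00381), at 112, 131, 125 and 108 CPM against 91.9, 87.1, 78.5 and 75.1 CPM, with the positive library higher in 4 of 4 pairs. Ccna2 was higher by 0.44 ± 0.11 (edgeR adjusted p = 0.0231), Cdk1 by 0.42 ± 0.10 (adjusted p = 0.0185), Bub1b by 0.36 ± 0.09 (adjusted p = 0.0197) and Prc1 by 0.36 ± 0.10 (adjusted p = 0.0437), each in 4 of 4 pairs. Over the 32 genes the positive library was higher in 4 of 4 pairs for 13 genes and in 3 of 4 for 13 more, where 15.2% of all genes were higher in all 4. Ccnb2 did not pass between the fractions (0.15 ± 0.11, edgeR adjusted p = 0.441). The median log2 ratio of the 32 genes to the labelled negative mean was 0.20, 0.35, 0.03 and 0.23 in positive replicates 1 to 4. Within pairs 1 to 4 the 32 genes summed to 8294, 8387, 6811 and 7751 CPM in the positive libraries. The sums were 8037, 6246, 6624.5 and 6271 CPM in the labelled negative ones, so pairs 1 and 3 were nearly level.

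In experiment 1, without the reporter, Ccnb2 again fell: it was the 1 gene of 32 that passed the test downward and none rose, where 7.5% of all 18202 genes tested fell and 7.22% rose. Ccnb2 was at 31.1, 47.5 and 41.5 CPM in EV and at 24.3, 22.5 and 28.3 CPM in shSmndc1, with no overlap, or 62.4% of EV (25.03 ± 2.98 against 40.1 ± 8.29 CPM, SD, n = 3 each; edgeR log2 fold change -0.68 ± 0.17, adjusted p = 0.0328). That call was lost when EV replicate 2 or 3 or shSmndc1 replicate 1 or 2 was left out, and without shSmndc1 replicate 3 edgeR called 4 genes higher (Bub1b, Ccnb1, Ccnf and Kif23). These libraries are separate from those of experiment 2, so for Ccnb2 the direction was measured again in other libraries, and its log2 fold changes were -0.68 in shSmndc1, -0.97 in the labelled negative and -0.86 in the positive libraries. Its close relative Ccnb1 was at 234, 235 and 185 CPM in EV and at 325, 281 and 185 CPM in shSmndc1, and did not pass. The median log2 fold change of the 32 genes was 0.07, with 23 above 0 and 9 below, beside -0.0029 over all genes, of which 50.2% were below 0.

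Besides Ccnb2, 4 of the 32 genes had groups that did not overlap in experiment 1, all with shSmndc1 higher, and none passed the test. Over all genes 19.7% lay above and 19.8% below, so groups without overlap were no more frequent among the 32 genes than among all genes. Ccnf was at 134, 107 and 97.0 CPM in EV and at 165, 154 and 149 CPM in shSmndc1 (log2 fold change 0.47 ± 0.14, edgeR adjusted p = 0.0548). Kif23, the motor of the central spindle and midbody, was at 48.3, 47.0 and 36.6 CPM against 61.5, 60.4 and 51.8 CPM (log2 fold change 0.40 ± 0.14, edgeR adjusted p = 0.0871). Incenp was at 173 ± 30.7 and 224 ± 15.9 CPM (log2 fold change 0.38 ± 0.15, edgeR adjusted p = 0.119) and Bub1 at 89.4 ± 8.74 and 108 ± 7.57 CPM (log2 fold change 0.28 ± 0.12, edgeR adjusted p = 0.145). In both groups replicate 3 was the low library, the lowest of the 3 in 30 of the genes in EV and in 27 in shSmndc1. The 32 genes summed to 8850, 8314 and 6967 CPM in EV and to 9278, 8785 and 7070 CPM in shSmndc1. Cdkn1a was highest in those same libraries, at 395 CPM in EV replicate 3 and 630.4 CPM in shSmndc1 replicate 3, against 172 to 324 CPM in the other 4. In shSmndc1 replicate 3 Malat1 (1083 CPM against 174 and 303), Rn7sk (8.82 against 4.38 and 2.57 CPM), summed histone RNAs (5.20 against 2.89 and 3.03 CPM) and the mitochondrial share of counts (4.76% against 2.44% and 2.81%) were also highest of the 3. The part of these values in the lower sums was not tested. Without EV and shSmndc1 replicates 3, a choice made after seeing the data, the log2 fold change of Ccnb2 was -0.76 with edgeR adjusted p = 0.0869, in a fit of 4 libraries that called 408 of all genes lower in place of 1366.

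**Figure D5:**
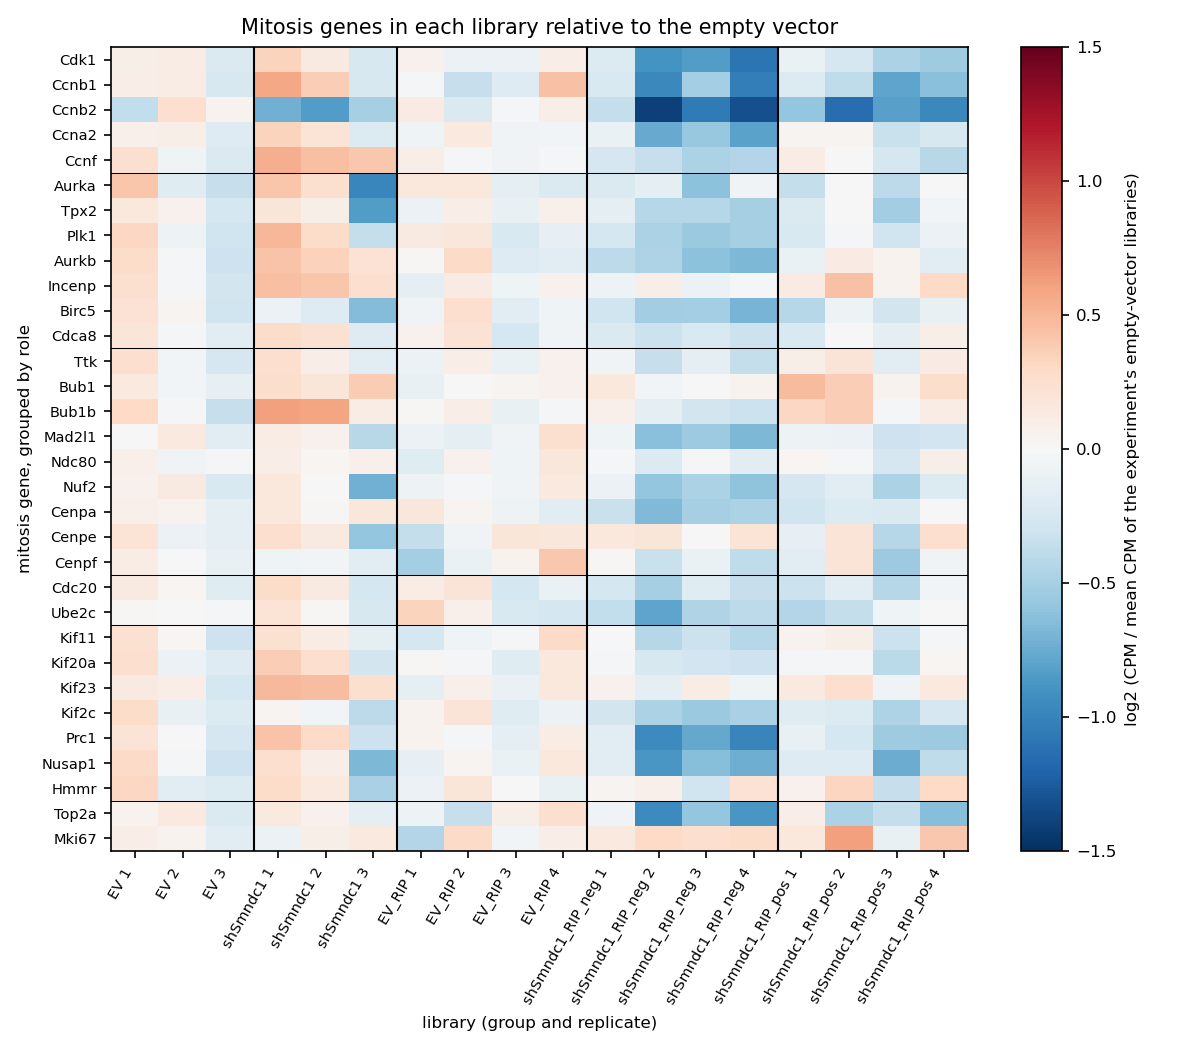
Log2 ratio (colour) of each mitosis gene's CPM (rows, grouped by role) to the mean of the empty-vector libraries of its experiment, in the 18 libraries (columns). Labelled negative replicates 2 to 4 are blue (lower) in most rows, with medians of -0.44, -0.46 and -0.43, while replicate 1 is paler (-0.12) and shSmndc1 replicates 1 and 2 are mostly red (0.26 and 0.14).

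From the same lists, 5 of 14 other regulators of mitotic entry rose in shSmndc1 and none fell, beside 7.22% higher and 7.5% lower over all genes. Counts of 1 in 15, 2 in 26 or 2 in 27 are near those shares. They included Plk4, the kinase of centriole duplication (49.7 to 57.1 CPM in EV and 75.7 to 77.8 CPM in shSmndc1, log2 fold change 0.52, edgeR adjusted p = 0.0178), Wee1, which inhibits CDK1 (0.60, adjusted p = 0.0206), Mastl (0.57), the Greatwall kinase, and Cks1b (0.64), a CDK-binding subunit. E2f7 (0.99) and the MuvB subunit gene Lin9 (0.44) rose among 16 genes of mitotic transcription, with none falling. Of 27 other kinetochore genes Spc25 (-0.88) and Cenpm (-0.70) fell and Nsl1 (0.66) rose. Spc25 went from 129, 148 and 136 CPM in EV to 94.1, 80.8 and 49.1 CPM in shSmndc1, again without overlap, and was thus lower in all 3 comparisons with an empty vector, as was Anapc15 (-0.71, -0.41 and -0.48). Cep55 (0.72) and Kif18b (0.73) rose among 26 spindle and cytokinesis genes. In the condensin and cohesin list Cdca5 (0.63) and Espl1 (0.54) rose and Smc4 (-0.68), a condensin ATPase, fell. In the G1/S list 4 of 29 genes rose and none fell, led by Ccnd3, for cyclin D3 (1.13). Of 15 p53 arm genes Trp53 rose (0.54) and Gadd45a fell (-0.71). Foxm1, singled out after its values were seen, was at 276, 279 and 199 CPM in EV and at 343, 332 and 246 CPM in shSmndc1. It was at 218 to 294 CPM in EV_RIP and 229 to 260.5 CPM in the labelled negative libraries, so its labelled negative values lay inside the EV_RIP range.

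The change of the mitosis genes in shSmndc1 against EV was set against that in the labelled negative libraries against EV_RIP as a difference of effects over all 18 libraries. For 30 of 32 genes the difference was above 0, where 50% of all genes were below 0, with a median of 0.41, and 13 genes were at an unadjusted p under 0.05. None passed after adjustment with edgeR, as for all 20036 genes (0% in either direction), of which 2612 were at an unadjusted p under 0.05. Ccnf had a difference of 0.86 ± 0.18 (edgeR adjusted p = 0.0922), Aurkb of 0.88 ± 0.20 (adjusted p = 0.102) and Cenpa of 0.63 ± 0.16 (adjusted p = 0.129). DESeq2 called these 3 genes, and edgeR called 6 without labelled negative replicate 1. The experiments also differ in the reporter, in the sort and possibly in the day, which cannot be told apart from the groups. Against shSmndc1_RIP_pos the median difference was 0.20, with 27 above 0 (49% of all genes were below 0) and 2 genes, Ccnf (0.61) and Ccnb1 (0.77), at an unadjusted p under 0.05, and the smallest adjusted p was 0.998 among the mitosis genes.

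Both the genes that fell and those that did not pass had these promoter features. Of the 14 promoters of genes that fell in the labelled negative libraries 64.3% held TTTGAA and 64.3% held a CHR of either form with CCAAT, beside 85.7% for both measures in the 14 promoters of genes that did not pass. These shares are a description of few promoters, with Prc1 counted in both of its windows among the genes that fell, and were not tested. Nuf2, Nusap1 and Mad2l1, whose windows held none of the motifs, were among those that fell. The Mad2l1 window (chr6:66534971-66535270) ends before the start of that gene in the deposited tables (66535390), so the bases next to that start were not searched.

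Near-identical copies elsewhere in the genome, sharing at least 1% of a gene's 75-base words, were found for 3 of the 32 genes. Those of Ccnb1 include Ccnb1-ps, whose count was 7.49% to 13.4% of that of Ccnb1, and Cdc20 and Plk1 have copies as well, so their counts are less certain. With the copies' counts added, the log2 fold change of Ccnb1 in the labelled negative libraries was -0.66 (edgeR adjusted p = 0.0412), and the numbers of genes that fell stayed at 1, 15 and 1 in the 3 comparisons with an empty vector. No copy was found for Ccnb2 at this length.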

How the data were processed

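Both experiments come with raw count tables by gene, which the authors deposited as whole numbers without any scaling. The FPKM tables they deposited were compared with these counts for 21364 and 18662 genes, as the ratio of FPKM to count relative to the first library. That ratio was the same for all these genes of a library (largest relative deviation 6.7e-16). It equalled the value given by DESeq2-style size factors (largest relative deviation 2.2e-16). Gene length cancels in this comparison, so the lengths used were not checked. The submitters' processing notes name GRCm38/mm10 and the tools STAR (2.7.5a), Picard (2.19.2) and DESeq2 (1.30.0). How reads were counted, and whether by strand, is not given in the sources used here, so reads from exons that overlap on opposite strands cannot be told apart. The kits, per the labels' protocols, were RNeasy Micro with DNase and TruSeq stranded mRNA, sequenced in 75 bp pairs.

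Counts were tested with edgeR 4.0.16 in R 4.3.3 (default filter on low counts, TMM, quasi-likelihood test, Benjamini-Hochberg adjustment over all genes tested, threshold 0.05), with 1 fit for the 6 libraries of experiment 1, 1 for the 12 of experiment 2 and 1 for all 18 for differences of effects, and with DESeq2 1.42.0 as an alternative. SE is that of the log2 fold change, derived from its F statistic. CPM use TMM library sizes. The procedure was tested on simulated data. Among 153 pairs of libraries 0 were identical. The 32 genes and the gene lists were chosen with earlier results of these data known. Any of the 32 genes may be named, and of each other list up to 4 genes per comparison, those with the smallest p. Promoters shown are those of the genes with the largest falls unless stated otherwise. No chromosome 18 sequence is printed.

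Replicate numbers paired the sorted fractions: deviations from the group means of same-numbered libraries correlated over genes at 0.697, 0.431, 0.201 and 0.418, each best with its own number. In the other comparisons they did so only in part. For shSmndc1 with EV the correlations were -0.028, -0.017 and 0.297, and only replicate 3 was best with its own number. For labelled negative with EV_RIP they were 0.283, 0.571, -0.216 and -0.325, with replicates 1 and 2 best with their own numbers. For shSmndc1_RIP_pos with EV_RIP they were 0.239, 0.491, -0.0423 and -0.0555, and only replicate 2 was best with its own number in both directions. The main fits of these comparisons used no block.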

Additional observations from a re-analysis of the deposited data

Results flagged for a closer look

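In 4 of 99 sets of 4 libraries (a gene in a group) 1 library stood far from the other 3 for the group's range, and chance gives about 1 in 20. Ccna2 was at 475.897 CPM in EV_RIP replicate 2, above 416 CPM in the nearest library. Ccnf was at 133.962 CPM in EV_RIP replicate 1, above 122 CPM in the nearest. Mad2l1 was at 226.199 CPM in labelled negative replicate 1, above 162 CPM in the nearest, and this is the library that was highest of its group in 25 of the 32 genes. Kif20a was at 197.778 CPM in shSmndc1_RIP_pos replicate 3, below 256 CPM in the nearest.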

How the results depend on the processing

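No called fold change of the 32 genes reversed. Uncalled fold changes changed sign in 127 of 3488 cases of a gene under an alternative. Leaving out each library in turn, the number of genes that fell ranged from 0 to 1 in shSmndc1 against EV, from 0 to 18 in labelled negative against EV_RIP and from 1 to 4 in shSmndc1_RIP_pos against EV_RIP. The number that rose ranged from 0 to 4, 0 to 0 and 0 to 1 in these comparisons. Between the sorted fractions 0 to 6 genes were higher and 0 lower in the positive cells, and for the differences of effects 0 to 6 (labelled negative) and 0 to 0 (positive) were called. The counts of 18, of 4 that fell and of 6 came without labelled negative replicate 1, and the 4 that rose in shSmndc1 (Bub1b, Ccnb1, Ccnf and Kif23) without shSmndc1 replicate 3.

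In labelled negative against EV_RIP 9 genes fell with only the groups compared in the fit and 0 without labelled negative replicates 3 and 4 together, where 0 of all genes fell and 4 rose. Other scalings, no filter on low counts, DESeq2 and the replicate block gave 13 to 17 genes. In shSmndc1 against EV 0 genes fell without EV and shSmndc1 replicates 3 together, a choice added after seeing the data, and 1 rose with upper-quartile factors (Ccnf), 1 with DESeq2 (Ccnf) and 2 with the replicate block (Ccnf and Bub1b). In shSmndc1_RIP_pos against EV_RIP 2 genes fell with no filter on low counts and 2 with the replicate block. In that comparison 1 rose with DESeq2 size factors, 1 with upper-quartile factors, 1 with DESeq2 (Bub1) and 2 with the replicate block (Bub1 and Incenp). Between the sorted fractions 1 was higher with DESeq2 (Aurkb), 1 with the replicate block (Aurkb) and 5 with the replicate block and only the groups compared, added after seeing the data. The difference between shSmndc1 and the labelled negative effect was called for 2 genes with no filter (Ccnf and Aurkb) and 3 with DESeq2. The causes of these changes were not tested.

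Ccnb2 passed in shSmndc1 in 8 of 13 alternatives (log2 fold change -0.84 to -0.54, edgeR or DESeq2 adjusted p 0.000627 to 0.123), in the labelled negative libraries in 17 of 20 (-1.27 to -0.80, adjusted p 0.000238 to 0.215) and in shSmndc1_RIP_pos in 19 of 19 (-0.97 to -0.77, adjusted p 0.000805 to 0.0490). Labelled negative replicate 3 had the fewest counts (8084574), and without it 5 genes fell, against 0 without the deeper replicates 2 or 4.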
